A study of Mus musculus with 4 samples.

Results

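The genes by which cells take up fatty acids and burn them in β-oxidation were measured by RNA sequencing in sciatic nerve of 6-month-old mice, in an HSF V30M and an HSF WT group. The set holds 31 named genes of the 50593 listed in the deposited table, each found by its symbol. It was drawn up by pathway but with earlier results of these data known, so that the set as a whole gets no test. HSF V30M mice carry the human TTR V30M transgene, an amyloid-forming transthyretin, on an endogenous Ttr-null background, and HSF WT mice served as controls. Both groups are heterozygous for a deletion of Hsf1, which encodes heat shock factor 1, and both are of strain 129S1/SvImJ. Controls therefore lack the transgene and also keep the endogenous Ttr gene, so that the effects of these alleles cannot be told apart. The labels give 2 samples per group, and the methods give n = 4 without stating whether this is per group. The table holds 1 value per gene and group, as FPKM (fragments scaled for transcript length and library size), and none for a single mouse. No spread between mice can therefore be given, the per-gene test results that the authors list for this comparison were not used, and each ratio below compares these pooled libraries without a test. The promoter driving the transgene is not given in the sources used here.

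The FPKM of Hsf1 was 7.94 in the library pool labelled HSF V30M against 14.95 in that labelled HSF WT, although both carry the heterozygous deletion. Mouse Ttr, null by design in HSF V30M, was at 6.10 in the pool labelled HSF V30M, while the pool labelled HSF WT lists it at 0, where 3 fragments would have given 0.197. Mouse Ttr was thus listed in the group that lacks the mouse gene and not in the group that keeps it. The paper names liver and choroid plexus as the main sites of TTR synthesis, and cites a report of its expression in Schwann cells. Whether reads of the human transgene were aligned to mouse Ttr, and whether the labels hold, was not tested. The group names below are those of the labels, and every direction rests on them. All 12 Schwann cell markers examined were expressed and none was at 0 in either group, among them S100b, a calcium-binding protein of Schwann cells, at 328.4 in HSF V30M against 200.98 in HSF WT.

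Long-chain fatty acids reach a tissue as albumin complexes or as triglyceride, which lipoprotein lipase cleaves at the vessel wall. Inside the cell they are bound by carrier proteins, activated to acyl-CoA and passed into mitochondria through the carnitine shuttle. There they are shortened by repeated rounds of dehydrogenation, hydration, a further dehydrogenation and thiolysis, and electrons pass to the respiratory chain through electron transfer flavoprotein. Nuclear receptors of the PPAR family, activated by fatty acids, with the coactivator Ppargc1a, control many of these genes. In nerve, Schwann cells use fatty acids both for myelin lipids and as fuel, and the epineurium around the nerve contains fat cells.

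All 31 genes had a mean FPKM of at least 1, the minimum used here, and 29 of them differed between the groups by a fold of less than 1.5. The fold was taken on FPKM + 1, which understates the difference of low genes. Cd36, the fatty acid translocase of the plasma membrane, was 2.13-fold lower in HSF V30M than in HSF WT on the FPKM scale. Acadl, the long-chain acyl-CoA dehydrogenase of mitochondria, was 1.62-fold higher in HSF V30M. These were the only genes of the set past the fold of 1.5, 1 lower and 1 higher. Genes reaching that minimum, 15620 in all, are called expressed genes below, and 8.44% of them were lower and 8.22% higher by that fold, together 16.7%. At a log2 ratio of 0.32 or more in size, 5 of the 31 genes were counted, against 36.1% of expressed genes.

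The genes spanned a wide range of levels, shown in the plot of levels by role. Lpl had the highest mean FPKM and Fabp3 the lowest. The mean of Lpl exceeded that of 96.4% of expressed genes, and the mean of Fabp3 exceeded that of 12.4%. After Lpl the order ran Etfb, Acsl1, Cd36, Hadha, Acadm and Acaa2. At the lower end stood Ehhadh, Ppargc1a, Ppara, Cpt1b and Fabp3. Since no spread between mice is known, it cannot be said which neighbours in this order differ.

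**Figure D1:**
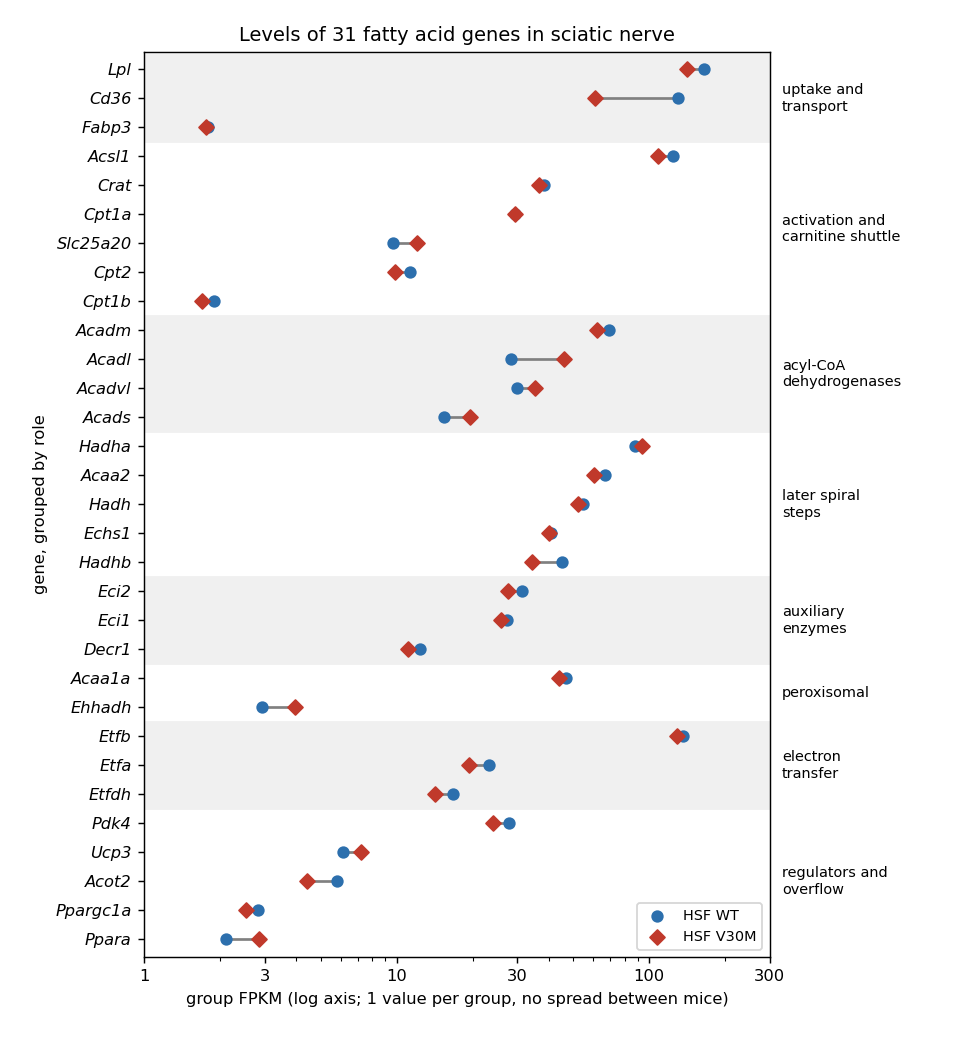
FPKM of the 31 genes on a log axis, with 1 point per group (blue circles, HSF WT; red diamonds, HSF V30M) joined by a line and the genes ordered by role and level. Most pairs nearly coincide, while Cd36 lay at 61.0 in HSF V30M against 130.2 in HSF WT and Acadl at 46.0 and 28.4.

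Uptake genes were considered first. Cd36 (ENSMUSG00000002944) is annotated in GRCm38 on chromosome 5, minus strand, at 17781690 to 17888801 and has 6 transcripts. Its FPKM was 61.0 in HSF V30M against 130.2 in HSF WT, a ratio of 0.469. The values stand for about 4610 fragments in HSF V30M against 7554 in HSF WT, and the 95% counting interval of the ratio was 0.452 to 0.486. Intervals of this kind cover counting error only and not the spread between mice. The log2 ratio of Cd36 was -1.08, and 3.57% of expressed genes had a lower one.

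Lpl, the lipoprotein lipase that frees fatty acids from circulating triglyceride, had an FPKM of 141.8 in HSF V30M against 165.4 in HSF WT, a ratio of 0.857. In relation to Lpl, Cd36 was at 0.430 in HSF V30M against 0.787 in HSF WT, or 0.547 times as high. This factor depended on the reference gene. It was 0.389 with the endothelial gene Cdh5, 0.732 with Fabp4 and 0.798 with Adipoq, both expressed in fat cells. With the macrophage gene C1qb it was 1.11. Cd36 was thus lower in HSF V30M in relation to each of these genes except C1qb. Of the 8 macrophage markers described below, C1qb had the lowest FPKM ratio, 0.423. The ratios of the other macrophage markers were above that of Cd36, 0.469. Fabp3, the fatty acid binding protein of heart and muscle, was near the lower end of detection with 1.75 in HSF V30M against 1.78 in HSF WT. It stood for about 26 and 20 fragments, and with an interval of 0.536 to 1.89 for its ratio, a difference of the size seen for Acadl was not detectable. Fabp3 also shares 9.84% of its exonic bases with Zcchc17 on the opposite strand. Zcchc17 had an FPKM of 15.2 in HSF V30M against 16.7 in HSF WT, well above Fabp3.

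The promoters of the genes past the fold are shown because they belong to the only members that stood out, and they differ in composition. The stretches are the 250 bases before the transcription start in the RefSeq table for GRCm38.p6. That of Cd36 is at chr5:17835897-17836146 and that of Acadl at chr1:66863310-66863559, both on the minus strand. Capitals mark the hexamer AGGTCA, the core to which PPAR and related receptors bind, and the GC box GGGCGG, each on either strand.
Cd36: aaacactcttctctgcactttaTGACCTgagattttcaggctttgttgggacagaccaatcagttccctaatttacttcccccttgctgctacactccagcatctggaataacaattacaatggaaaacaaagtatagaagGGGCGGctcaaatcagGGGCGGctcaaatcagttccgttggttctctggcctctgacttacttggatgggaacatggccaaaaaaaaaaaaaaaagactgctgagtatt
Acadl: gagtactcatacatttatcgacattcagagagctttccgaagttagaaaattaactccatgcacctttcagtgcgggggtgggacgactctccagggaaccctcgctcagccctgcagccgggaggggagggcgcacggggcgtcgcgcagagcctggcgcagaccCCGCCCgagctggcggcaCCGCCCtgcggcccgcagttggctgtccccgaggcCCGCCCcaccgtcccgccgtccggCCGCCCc
The Cd36 stretch has a GC content of 43.2%, with 1 AGGTCA hexamer and 2 GC boxes. The Acadl stretch has a GC content of 68.0%, with 4 GC boxes and no AGGTCA hexamer. The Cd36 start lies inside the annotated gene, which has further starts upstream.

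Promoter entries of 300 bases, 250 before and 50 after a start, matched 26 of the 31 genes by symbol and gave 27 windows. Cpt1b, Crat, Decr1, Acaa2 and Lpl had no entry. The windows of the set were rich in GC, with a median of 60.7% against 52.7% over all 32851 windows, and 22 of 27 lay above the median of all. The GC box GGGCGG was found in 18 of 27 windows, 66.7%, against 35.7% of all windows. The hexamer AGGTCA was found in 6 windows, those of Acadm, Acadvl, Cd36, Cpt1a, Echs1 and Ucp3, or 22.2% against 16.3% of all. The full repeat AGGTCANAGGTCA, which contains that hexamer, was in none of the 27 windows and in 13 of all windows. TATAAA was in none of the 27 windows and in 13.6% of all. The element TCAAGGTCA of estrogen-related receptors, which also contains the hexamer, was in none and in 0.423% of all. All motifs were searched on both strands, and a match or its absence says only whether these letters stand in the window.

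For activation and the carnitine shuttle, the 6 genes had log2 ratios from -0.20 to 0.29, none past the fold. Acsl1, a long-chain acyl-CoA synthetase abundant in fat, had an FPKM of 108.0 in HSF V30M against 124.5 in HSF WT. Cpt1a and Cpt1b encode the liver and the muscle form of carnitine palmitoyltransferase 1, the entry step of the shuttle that malonyl-CoA inhibits. Cpt1a (ENSMUSG00000024900, chromosome 19, 3322334 to 3385733) had 29.3 in HSF V30M against 29.5 in HSF WT, a ratio of 0.993 with a counting interval of 0.939 to 1.05. Cpt1b (ENSMUSG00000078937, chromosome 15, 89416405 to 89425863) had 1.70 and 1.89.

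Cpt1a was thus more abundant than Cpt1b, with 17.2 times its FPKM in HSF V30M and 15.6 times in HSF WT. Cpt1c, one of the other pathway genes below and named after its values were seen, had 6.95 in HSF V30M against 6.31 in HSF WT. The level of Cpt1b is uncertain, because 81.4% of its exonic bases are shared with the annotated gene Gm44502 on the same strand. No FPKM estimate was available for Gm44502. Slc25a20, the carnitine-acylcarnitine translocase of the inner membrane, had an FPKM of 12.0 in HSF V30M against 9.69 in HSF WT, a ratio of 1.24. Cpt2, which returns the acyl group to CoA inside the mitochondrion, had 9.83 and 11.3, a ratio of 0.869. Crat, the carnitine acetyltransferase for short chains, had 36.7 and 38.3. The translocase and Cpt2, which act in succession, thus lay on opposite sides of a ratio of 1.

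The acyl-CoA dehydrogenases, which carry out the opening dehydrogenation for chains of different length, lay on both sides of a ratio of 1. Acadl (ENSMUSG00000026003) lies on the minus strand of chromosome 1 from 66830839 to 66863277, with 2 transcripts. Its FPKM was 46.0 in HSF V30M against 28.4 in HSF WT, a ratio of 1.62 with a counting interval of 1.49 to 1.75, from about 1864 and 885 fragments. Its log2 ratio was 0.68, and 93.3% of expressed genes had a lower one. Acadvl, the very-long-chain enzyme of the inner membrane, had an FPKM of 35.4 in HSF V30M against 29.96 in HSF WT, and Acads, the short-chain enzyme, had 19.4 and 15.4. Both were higher in HSF V30M with ratios of 1.18 and 1.26 and remained within the fold of 1.5.

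Acadm, the medium-chain enzyme and the most abundant of the 4 in both groups, had 62.4 in HSF V30M against 69.5 in HSF WT, a ratio of 0.898. Acadl was at 0.738 of the Acadm level in HSF V30M against 0.409 in HSF WT. For Acadvl, 42.9% of exonic bases are shared with Dvl2 on the opposite strand, which had an FPKM of 12.7 in HSF V30M against 13.3 in HSF WT.

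**Figure D2:**
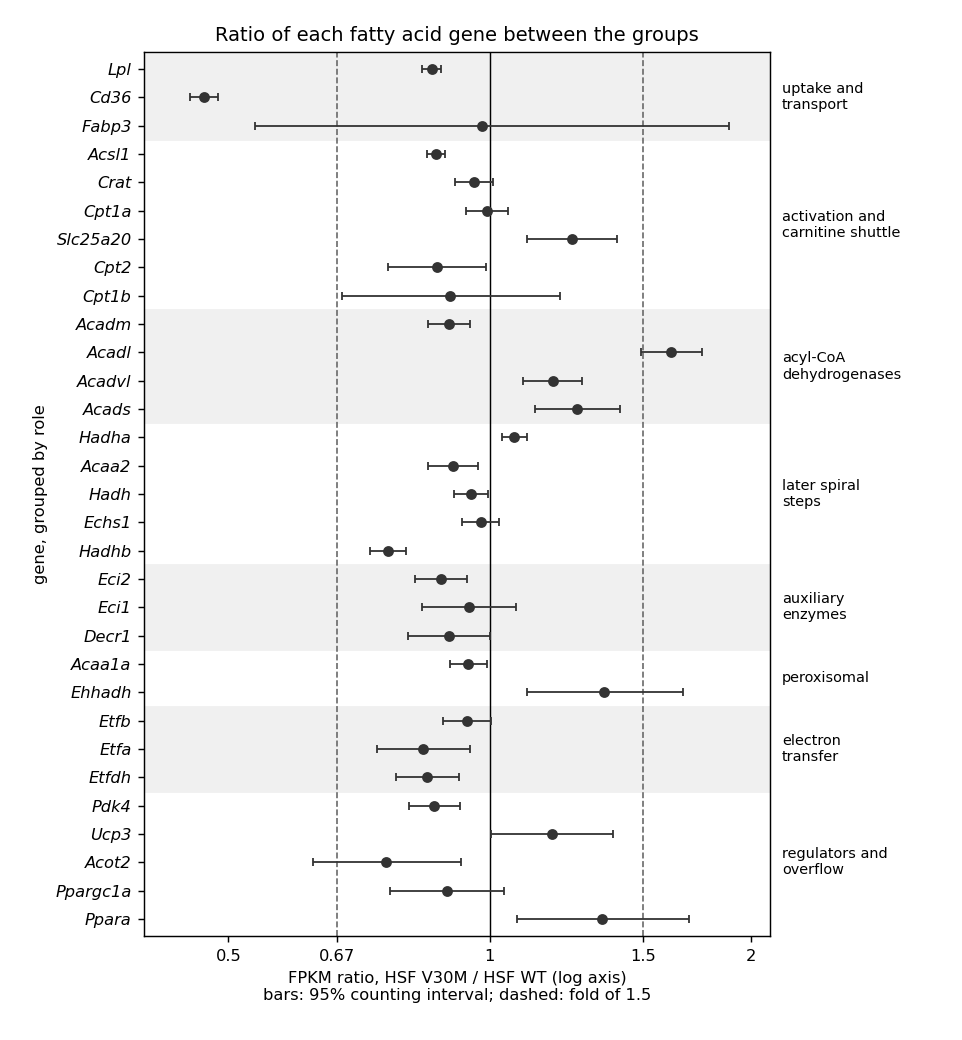
FPKM ratio of HSF V30M over HSF WT for each gene on a log axis, with bars for the 95% counting interval and dashed lines at a fold of 1.5 in either direction. Cd36, at 0.469, and Acadl, at 1.62, lie outside the dashed lines, and the bars of low genes such as Fabp3 are wide.

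In the later steps of the spiral, the 5 genes had log2 ratios from -0.38 to 0.09. Hadha and Hadhb encode the α and β subunits of the mitochondrial trifunctional protein, which takes long-chain enoyl-CoA through hydration, dehydrogenation and thiolysis. They are neighbours on chromosome 5, Hadha on the minus strand from 30118304 to 30155162 and Hadhb on the plus strand from 30155248 to 30184593, and point away from each other. The RefSeq window of Hadha spans 30154931 to 30155230, so that its RefSeq start lies inside the annotated gene. The 85 bases between the genes, at chr5:30155163-30155247, are shown because the outermost annotated starts of both lie beside this stretch. Capitals again mark the GC box, of which there are 2.
Hadha to Hadhb: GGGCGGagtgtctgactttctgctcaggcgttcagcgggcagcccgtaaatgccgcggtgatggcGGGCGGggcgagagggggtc

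Hadha had an FPKM of 94.0 in HSF V30M against 88.1 in HSF WT, a ratio of 1.07 with a counting interval of 1.032 to 1.103. Hadhb had 34.4 in HSF V30M against 45.0 in HSF WT, a ratio of 0.764 with a counting interval of 0.728 to 0.801. Hadhb was the lowest of the set by ratio apart from Cd36 and Acot2, although it did not pass the fold of 1.5. Hadha exceeded Hadhb 2.73-fold in HSF V30M and 1.96-fold in HSF WT, and the ratios of these neighbouring genes lay on opposite sides of 1.

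Hadh, the 3-hydroxyacyl-CoA dehydrogenase for shorter chains, had 52.0 in HSF V30M against 54.7 in HSF WT. Echs1, the short-chain enoyl-CoA hydratase, had 40.03 and 41.0. Acaa2, a mitochondrial thiolase, had 60.6 and 66.9. The ratios of these matrix enzymes were between 0.907 and 0.976, close to 1.

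The auxiliary enzymes that prepare unsaturated chains were all slightly lower in HSF V30M, by less than the fold. Eci1, an enoyl-CoA isomerase, had 26.0 in HSF V30M against 27.4 in HSF WT. Eci2, a second isomerase, had 27.5 and 31.2. Decr1, the 2,4-dienoyl-CoA reductase, had 11.1 and 12.4. Their ratios ran from 0.879 to 0.947.

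Of the peroxisomal enzymes, Acaa1a, a thiolase, had 44.1 in HSF V30M against 46.7 in HSF WT. Ehhadh, the bifunctional enzyme, had 3.97 and 2.93, a ratio of 1.35. For Ehhadh the counting interval was wide, from 1.103 to 1.67, since about 261 and 148 fragments stood behind it. Acaa1a and its close copy Acaa1b could share reads, and the level of Acaa1a is uncertain to that extent.

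The genes of electron transfer were lower in HSF V30M, again within the fold. Etfb, the β subunit of electron transfer flavoprotein, had 128.6 in HSF V30M against 136.7 in HSF WT, a ratio of 0.941. Etfa, the α subunit, had 19.4 and 23.2, a ratio of 0.838. Etfdh, the oxidoreductase that passes the electrons to ubiquinone, had 14.2 and 16.7, a ratio of 0.846. The transcript of the β subunit exceeded that of the α subunit 6.63-fold in HSF V30M and 5.90-fold in HSF WT. The annotated gene Gm45233 shares 53.0% of the exonic bases of Etfb on the same strand and is listed at 0 in HSF V30M against 0.316 in HSF WT.

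Among regulators, Ppara, the fatty acid receptor that drives β-oxidation genes in liver, had 2.85 in HSF V30M against 2.11 in HSF WT, a ratio of 1.35 with a counting interval of 1.08 to 1.70. Ppargc1a, the coactivator of mitochondrial genes, had 2.52 and 2.83, a ratio of 0.892. Pdk4, a kinase that turns off pyruvate dehydrogenase when fatty acids are burned, had 24.0 and 27.8, a ratio of 0.863. Cd36, Pdk4 and Cpt1a are all known targets of PPAR receptors, and their ratios were 0.469, 0.863 and 0.993.

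Ucp3, a mitochondrial carrier typical of muscle, had 7.25 in HSF V30M against 6.15 in HSF WT, a ratio of 1.18. Acot2, a thioesterase that frees fatty acid from acyl-CoA in the matrix, had 4.41 and 5.81, a ratio of 0.759 with a counting interval of 0.625 to 0.926. Acot2 has near-identical copies in the same cluster, among them Acot1, and its level is uncertain where reads were split. None of the 5 genes of this group passed the fold.

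By sign, 23 of the 31 genes were lower and 8 were higher in HSF V30M, while 49.6% of expressed genes were lower. The 8 higher genes were Acadl, Ehhadh, Acads, Ppara, Slc25a20, Acadvl, Ucp3 and Hadha. The median log2 ratio of the set was -0.09, against 0.00 over expressed genes. The median size of the log2 ratio regardless of sign was 0.19 in the set and 0.23 over expressed genes. The summed FPKM of the 31 genes was 1162 in HSF V30M against 1294 in HSF WT, and without Cd36 it was 1101 and 1163. Genes expressed by the same cells are not independent, so that the count of signs has no test. The plot of the set among all genes shows where these ratios lie.

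**Figure D3:**
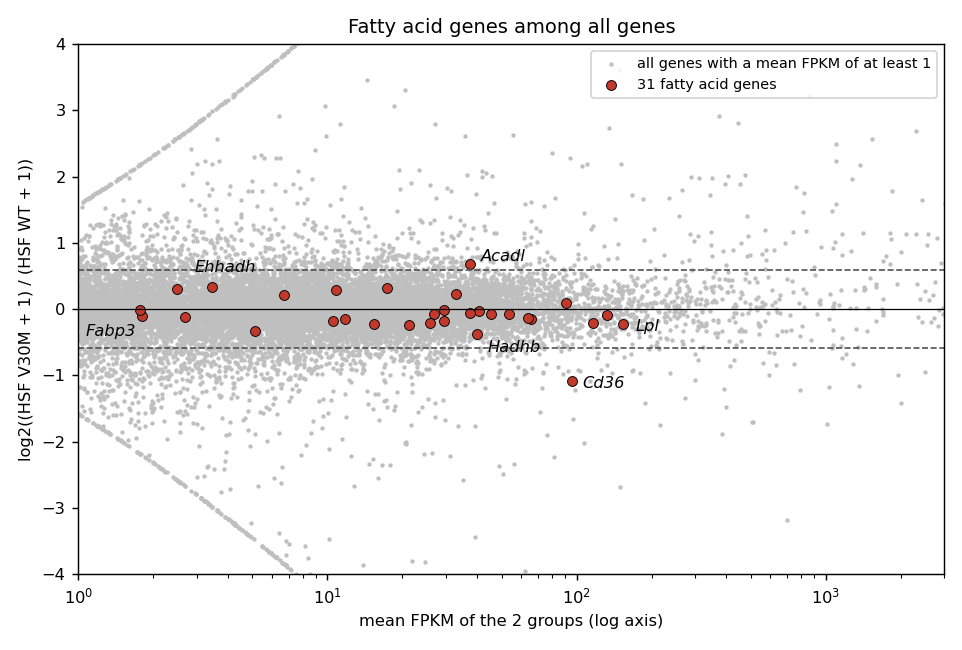
Log2 ratio (HSF V30M divided by HSF WT) on FPKM + 1 against the mean FPKM of the 2 groups (log axis), with grey points for expressed genes, red points for the 31 genes and dashed lines at a fold of 1.5; 279 grey genes lie outside the axes. The red points stay near 0 at every level, with Cd36 at -1.08 and Acadl at 0.68 beyond the dashed lines.

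Other genes of fatty acid metabolism were taken from a list of 64, of which 62 were expressed. By the fold of 1.5, 6 were lower and 1 was higher in HSF V30M, beside 8.44% and 8.22% of expressed genes, and the median log2 ratio was -0.06. Fabp4, the fatty acid binding protein of fat cells and capillaries, had an FPKM of 461.8 in HSF V30M against 721.6 in HSF WT. Pdk1, another kinase of pyruvate dehydrogenase, had 36.7 and 77.2, with a log2 ratio of -1.05. The acyl-CoA synthetases Acsl5, with 6.10 and 11.9, and Acsl3, with 9.33 and 15.4, were both lower.

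Acad9, an acyl-CoA dehydrogenase that also serves in complex I assembly, had 15.6 in HSF V30M against 25.8 in HSF WT. Fabp7, a fatty acid binding protein of immature glia, had 0.420 and 1.84, a low level. The gene past the fold in the opposite direction was Mgll, the monoacylglycerol lipase, with 130.1 in HSF V30M against 72.6 in HSF WT. The rest of the Acsl family, named here after its values were seen, lay within the fold on FPKM + 1. Acsl1 was at an FPKM ratio of 0.867, Acsl4 had 2.88 in HSF V30M against 3.04 in HSF WT, and Acsl6, with 2.71 against 1.76, had an FPKM ratio of 1.54 and passed the fold only without the added 1. Fabp4 also stands in the list of adipocyte markers below.

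Whole nerve contains several cell types, and in such RNA fewer cells of a type and less RNA per cell cannot be told apart. Of 12 adipocyte markers, 11 were expressed, none was at 0, and their summed FPKM was 2655 in HSF V30M against 3639 in HSF WT. Their median log2 ratio was -0.41, with 4 lower and 1 higher by the fold. The most abundant, Cfd (adipsin), had 1188 in HSF V30M against 1467 in HSF WT, and Adipoq, which encodes adiponectin, had 318.65 in HSF V30M against 542.7 in HSF WT. Cd36 is abundant in fat cells, in capillary endothelium and in macrophages. The FPKM ratios of the 11 expressed adipocyte markers spread from 0.224 for Lep to 1.68 for Acvr1c, with 0.587 for Adipoq, 0.809 for Cfd, 0.825 for Plin1, which coats lipid droplets, and 0.894 for Lipe, the hormone-sensitive lipase. The ratio of Cd36, 0.469, was below those of 10 of these markers, all but Lep. Those of Lpl, 0.857, and Acsl1, 0.867, lay between Plin1 and Lipe.

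Of 8 macrophage markers, 2 were lower by the fold and none was higher, and their summed FPKM was 218 in HSF V30M against 349 in HSF WT. C1qb, a complement component made by macrophages, had 58.7 in HSF V30M against 138.8 in HSF WT. Its ratio, 0.423, was below that of Cd36, 0.469, and the ratios of the other macrophage markers were above it. Cd68, also past the fold, had 15.5 in HSF V30M against 30.9 in HSF WT, a ratio of 0.502. Adgre1, with a ratio of 1.04, and Cd163, with 1.104, were slightly higher in HSF V30M. Of 8 endothelial markers, 1 was higher by the fold and none was lower, with sums of 337 and 272. The endothelial ratios ran from 0.794 for Pecam1, an adhesion molecule, to 1.73 for the tight junction gene Cldn5, all above that of Cd36. Each of these 3 lists held genes on both sides of a ratio of 1, and Plin1, Lipe, Adgre1, Cd163 and Pecam1 were named after their values were seen. The part of these cell types in the value of Cd36 was not tested.

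Skeletal muscle markers had the lowest median of the 7 marker lists. Of 18 markers, 13 were expressed, 12 of them were lower in HSF V30M by the fold, and their median log2 ratio was -1.44, with sums of 65.2 and 216. Ckm, the muscle creatine kinase, had 8.97 in HSF V30M against 43.8 in HSF WT. The ratios of the 13 expressed markers ran from 0.177 for Myh4 to 0.823 for Casq1, named after its values were seen, with 0.205 for Ckm. The muscle-typical genes of the fatty acid set had ratios of 0.899 for Cpt1b, 1.18 for Ucp3 and 0.980 for Fabp3. Of these, the level of Cpt1b is uncertain through its overlap with Gm44502, and the counting interval of Fabp3 was 0.536 to 1.89.

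Schwann cell markers centred on a log2 ratio of 0.08 (median of 12 genes) and fibroblast and perineurial markers on -0.07 (10 genes). Erythrocyte markers had a median of 1.40 over 6 genes, 5 of them higher by the fold, with sums of 291 in HSF V30M against 101 in HSF WT. The part of blood and muscle in the values of the fatty acid genes was not tested.

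**Figure D4:**
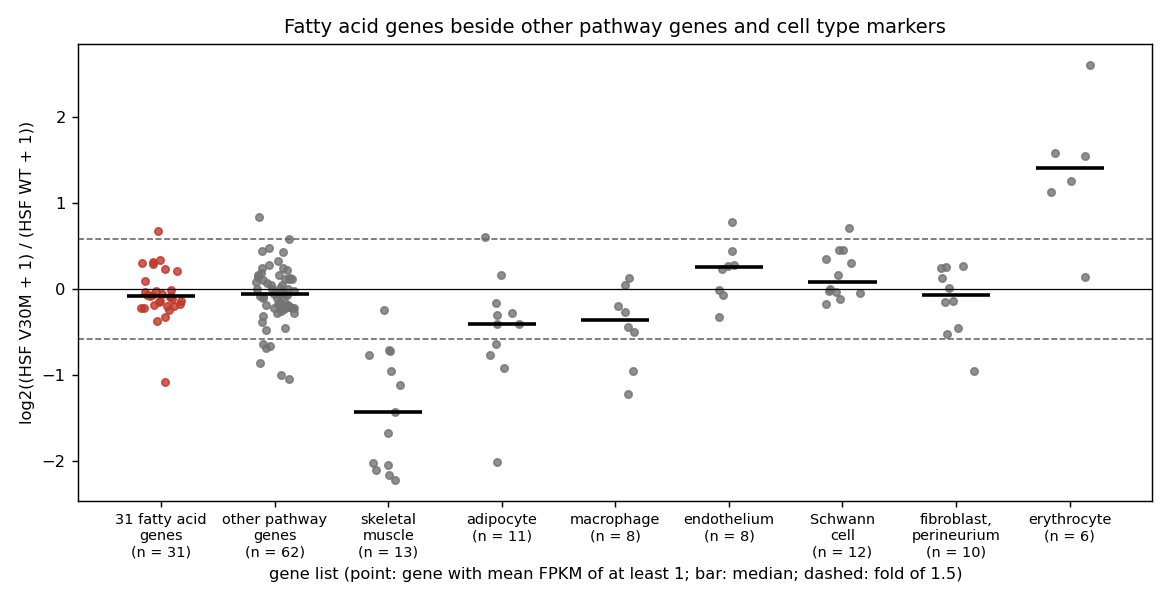
Log2 ratio (HSF V30M divided by HSF WT) on FPKM + 1 for the 31 fatty acid genes (red), for other genes of the pathway and for markers of 7 cell types (grey), with a point per expressed gene, a bar at the median and dashed lines at a fold of 1.5. The fatty acid genes had a median of -0.09, while the muscle markers had one of -1.44, the adipocyte markers -0.41 and the erythrocyte markers 1.40.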

How the data were processed

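RNA of sciatic nerve was sequenced on Ion Torrent libraries. The authors aligned the reads to GRCm38, which is the C57BL/6J strain, and compared the groups with Cuffdiff, while the submitters' processing notes also name STAR and Cufflinks; versions and the annotation are not given in the sources used here. The deposited FPKM is the authors' Cuffdiff estimate for each group over its libraries, rounded to 2 decimals in HSF V30M. The table also holds the authors' own fold changes, test statistics, p-values and q-values, which were not used. Its decimal commas were replaced by points and columns read by position. Of 50593 genes, 23 without an estimate were left out.

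Log2 ratios of HSF V30M over HSF WT were taken after adding 1 to each FPKM, in expressed genes (mean of 1 or more), and a fold of 1.5 on that scale was counted; linear ratios use FPKM alone. With 1 value per group, no limma fit was possible. The members and lists were chosen with earlier results of these data known. Named genes were the 31 members, the other pathway genes past the fold (at most 10), the most abundant marker and markers past the fold, of which examples are given, and Hsf1 and Ttr. Total read counts are not in the table. The worth of 1 fragment was read from single-transcript genes, after taking 201 bases from the transcript length. In HSF WT 98.2% of 1112 low values lay within 2% of whole fragments, and in HSF V30M 99.1% of 457 within 5%. By this worth, the 2 libraries of a group differed in depth 1.18-fold in HSF V30M and 1.35-fold in HSF WT. Fragment numbers assume the longest transcript of GENCODE M21 (GRCm38), and ratio intervals are exact (Clopper-Pearson, 95%) and cover counting error only, since fragments are not independent molecules. Scripts were tested on simulated data. Calculations ran in Python 3.11.15 with scipy 1.17.1, numpy 2.4.6, matplotlib 3.10.9 and pandas 2.3.3. Alternatives were a pseudocount of 0.1 or none, median-of-ratios scaling, minimum means of 5 or none, a fold of 2 and a log2 ratio of 0.32, and the shortest transcript.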

Additional observations from a re-analysis of the deposited data

How the results depend on the processing

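No paired analysis was possible because each gene has a single value in each group, pooled over its mice, and for the same reason no replicate could be left out. Cd36 passed the fold of 1.5 and of 2, and Acadl passed 1.5 alone, so that 0 genes of the set were higher at a fold of 2. At a log2 ratio of 0.32 or more in size, 2 were higher and 3 lower. Both counts stayed at 1 with a pseudocount of 0.1, without a pseudocount (chosen after seeing the data), with median-of-ratios scaling and with other minimum means. The median of the set stayed between -0.11 and -0.08. Of the other pathway genes, 4 were higher with a pseudocount of 0.1, 2 with median-of-ratios scaling, 6 at that ratio and 0 at a fold of 2, where 2 were lower. Over all genes, 621 were higher and 616 lower at a fold of 2, and 732 and 646 with a minimum mean of 5. All 93 recomputed ratios of single members stayed within their counting intervals. Those without a pseudocount could not fall outside, because the intervals were built around that ratio. The scaling factors were 0.999 for HSF V30M and 1.001 for HSF WT, so that scaling hardly moved any ratio. This count therefore says little about the choice of settings. On the shortest annotated transcript, the lowest number of fragments behind a member was 6 in place of 26 in HSF V30M and 4 in place of 20 in HSF WT. The gene with the fewest fragments was then Cpt1b in HSF V30M and Ppara in HSF WT, in place of Fabp3, so that depth limits these low genes. Counting intervals also widened on the shortest transcript. Examples that then included a ratio of 1 were Hadha, with 0.885 to 1.29, and Ppara, with 0.412 to 6.97. Those of Cd36, 0.427 to 0.515, and Acadl, 1.38 to 1.90, still left out 1.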
